A study of Mus musculus with 12 samples.

Results

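Fatty acids reach hepatocyte metabolism through a short chain of proteins, and 10 genes of that chain were followed here in mouse liver: Cd36, Slc27a1, Slc27a4 and Slc22a5 at the cell surface, Fabp1 as the cytosolic carrier, and Acsl1, Acsl3, Acsl4, Acsl5 and Slc27a2 as acyl-CoA synthetases. They were chosen by name, with earlier results of these data known, and were found through the transcript accession that each array probe carries. They are 10 of the 16535 genes that received a symbol on the array. All 10 were measured, by 15 probes, and every probe was well above background on all 12 arrays.

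The 12 two-colour arrays held whole-liver RNA of C57BL/6 mice labelled with Cy5, against a pooled liver reference labelled with Cy3 on every array. MycF/F,ERT2-Cre mice, which carry floxed Myc and a tamoxifen-inducible Cre recombinase, were fed 0.1% Wy-14643 (4 arrays) or control diet (4 arrays), and MycF/F mice, with the floxed allele and no Cre, were fed 0.1% Wy-14643 (3 arrays) or control diet (1 array), each for 2 days; they are called Cre livers and MycF/F livers below. Wy-14643 is a synthetic agonist of the nuclear receptor PPARα. The RNA of the single MycF/F control array is labelled as pooled liver, so each comparison that uses it rests on 1 array whose spread was taken from the other groups. The promoter of the Cre transgene, tamoxifen dosing, sex, age and animal identity are not stated in the labels or headers, and nothing in the labels says that the arrays of a group came from separate animals, so p-values measure the spread between these arrays.

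PPARα is a ligand-activated transcription factor that forms a heterodimer with the retinoid X receptor, binds direct repeats of a hexamer in the DNA of its target genes and, in rodent liver, turns on genes of fatty acid oxidation and handling. Long-chain fatty acids enter cells with the help of the scavenger receptor CD36 and the FATP proteins of the Slc27a family, are carried in the hepatocyte cytosol by the liver fatty acid binding protein FABP1, and must be joined to coenzyme A before they can be oxidised or stored. The long-chain acyl-CoA synthetases of the Acsl family and several FATP proteins catalyse that activation, and the carnitine transporter encoded by Slc22a5 supplies the carnitine on which the activated chains enter mitochondria.

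The promoter windows of the genes were searched for the PPARα half-site because all 10 genes moved one way on the diet, as described below gene by gene. Each window, taken from RefSeq on GRCm38.p6, runs from 250 bases before to 50 bases after a transcription start, and the 10 genes had 13 such windows. The hexamer AGGTCA, searched on both strands, was in a window of 3 of the 10 genes, Cd36, Fabp1 and Slc27a2, and in a window of 18.1% of the 27025 genes in the table. A direct repeat of AGGNCA with 1 base between the 2 copies was in the window of Fabp1 alone among the 10, and in a window of 0.451% of all genes in the table. The 3 windows follow, in the orientation of each gene, with capitals on every match of either search. In the Fabp1 window the longer run of capitals is the direct repeat on the opposite strand, which starts 67 bases before the transcription start and includes 1 of the 2 hexamer matches.
Cd36, chr5:17835847-17836146, minus strand: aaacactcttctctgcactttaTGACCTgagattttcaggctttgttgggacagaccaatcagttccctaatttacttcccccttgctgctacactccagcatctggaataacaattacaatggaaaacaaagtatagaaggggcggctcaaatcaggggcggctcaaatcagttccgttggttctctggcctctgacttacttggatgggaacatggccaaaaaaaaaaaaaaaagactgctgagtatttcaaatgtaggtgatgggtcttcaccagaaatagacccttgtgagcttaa
Fabp1, chr6:71199629-71199928, plus strand: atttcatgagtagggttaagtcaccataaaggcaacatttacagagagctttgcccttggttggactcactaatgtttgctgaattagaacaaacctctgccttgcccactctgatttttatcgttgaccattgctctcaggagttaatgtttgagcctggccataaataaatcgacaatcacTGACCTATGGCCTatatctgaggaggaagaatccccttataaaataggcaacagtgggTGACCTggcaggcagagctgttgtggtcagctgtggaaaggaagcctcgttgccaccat
Slc27a2, chr2:126552774-126553073, plus strand: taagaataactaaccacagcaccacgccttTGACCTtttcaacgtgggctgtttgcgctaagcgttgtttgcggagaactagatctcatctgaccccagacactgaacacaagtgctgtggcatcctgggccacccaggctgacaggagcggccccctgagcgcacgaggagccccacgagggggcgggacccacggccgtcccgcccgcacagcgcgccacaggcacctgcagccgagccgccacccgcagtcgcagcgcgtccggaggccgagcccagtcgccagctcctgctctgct
A match describes letters in these windows, not a binding site, and the other windows were not searched beyond their 300 bases.

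On the Wy-14643 diet every gene of the group stood above every control array. With the brightest probe of each gene, all 7 Wy-14643 arrays lay above all 5 control-diet arrays for 10 of 10 genes, as they did for 7.11% of all 25270 genes and unnamed probes, where 6.32% lay wholly below. The same held for 13 of 15 probes, against 7.46% of all 31861 probes above and 6.11% below; these counts include the spots marked as outliers described below. Values are log2 ratios of the sample to the pooled reference, differences are on the same log2 scale, and tests were made with limma across all genes and unnamed probes, with Benjamini-Hochberg adjustment and a threshold of 0.05. In Cre livers 9 of the 9 genes that could be tested rose, Slc27a1 among them with only 1 unmarked array in each group, where 9.07% of all 25162 genes and unnamed probes tested were called higher and 7.20% lower. In MycF/F livers 7 of 7 rose, against 3.20% called higher and 3.22% lower of all 24913. The median difference of the tested genes was 1.56 in Cre livers and 1.82 in MycF/F livers, where the medians of all genes tested were 0.031 in Cre livers and -0.0041 in MycF/F livers. In whole-tissue RNA, more cells of a type and more RNA per cell cannot be told apart.

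The genes not tested lacked values because the scanner software had marked spots of these probes as outliers, and such spots were left out. That removed 48 of the 180 values of the 15 probes, or 26.7%, against 3.16% of all spots, and 30 of the 48 were on slide 1. With the marked spots kept, 10 of 10 genes rose in Cre livers, where 8.85% of all genes tested were called higher, and 10 of 10 rose in MycF/F livers, where 3.02% were. Values from marked spots are named as such below. As all Wy-14643 arrays lay above all control arrays with the marked spots kept, every difference within a slide had to be positive. Only the sizes are therefore given: within the 3 slides the 10 differences in Cre livers lay between 0.50 and 3.21.

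**Figure D1:**
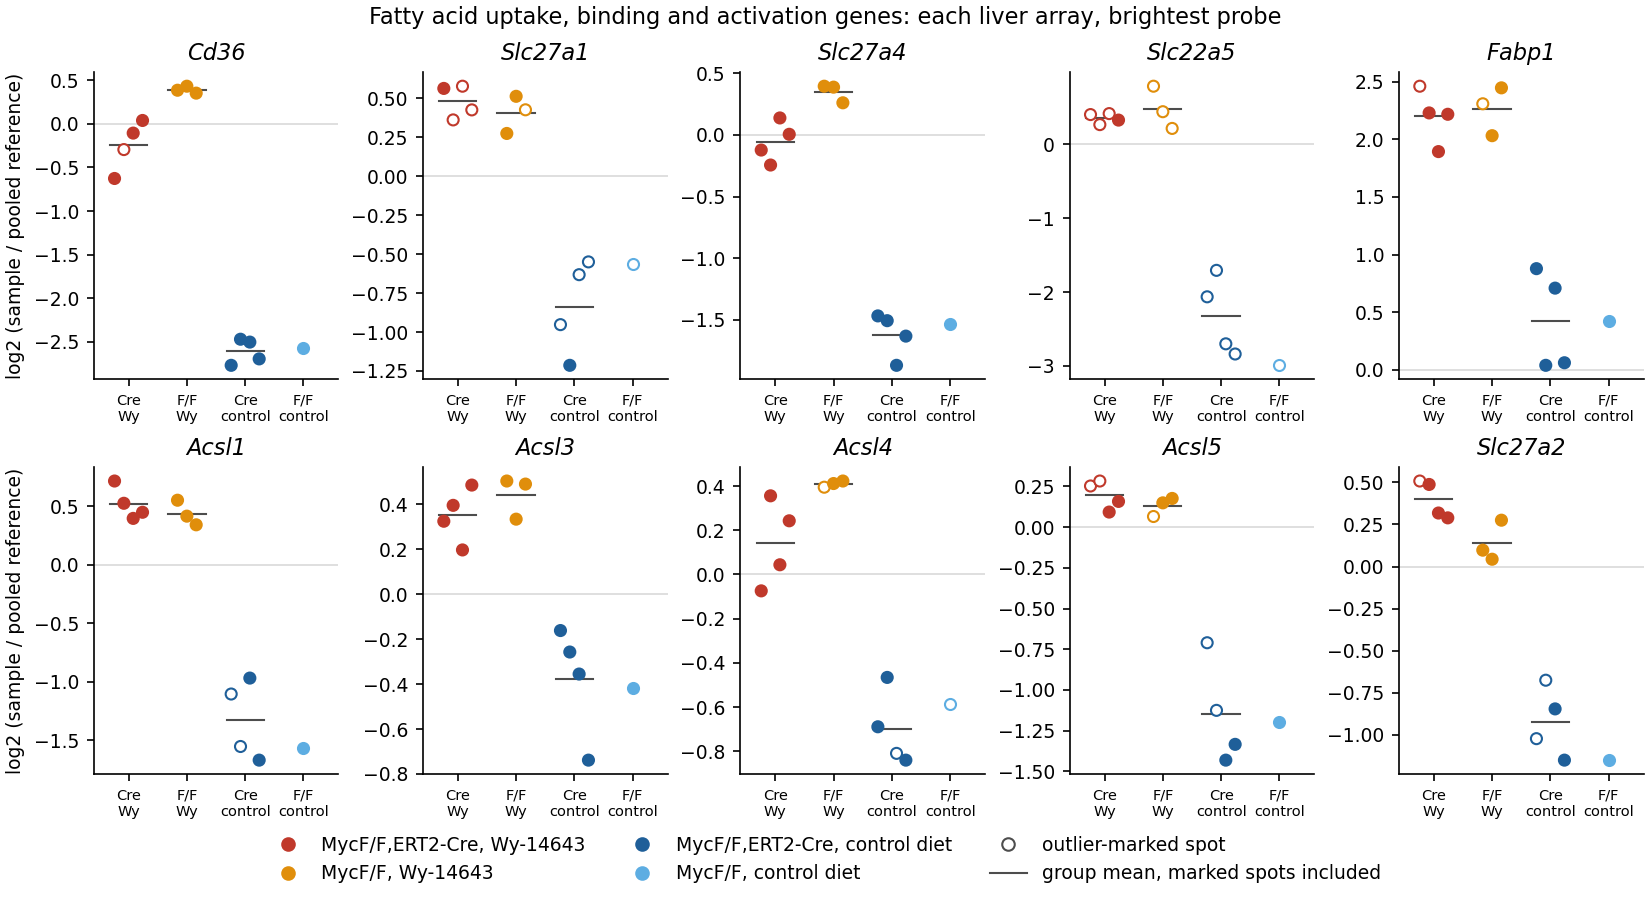
Log2 ratio of sample to pooled reference (y axis) of each gene's brightest probe on each of the 12 arrays, by group (x axis); open points are spots that the scanner software marked as outliers, and lines are group means with those spots included, drawn where a group has more than 1 array. In all 10 panels the 7 arrays of livers on Wy-14643 lie above the 5 arrays on control diet, a separation that 7.11% of all genes and unnamed probes showed.

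Cd36 encodes the scavenger receptor that binds long-chain fatty acids at the plasma membrane. Its log2 ratio was -0.63, -0.29, -0.11 and 0.04 in the 4 Cre livers on Wy-14643, the value of -0.29 from a marked spot, against -2.77, -2.47, -2.50 and -2.70 on control diet. It was 0.39, 0.43 and 0.35 in the 3 MycF/F livers on Wy-14643, against -2.57 in the MycF/F control. The diets were thus separated by a gap wider than the spread of either, and Cd36 stood within the top 38 of all genes tested by the size of its rise in Cre livers. The difference was 2.38 (SE 0.14, 5.20-fold, adjusted p = 1.20e-06, n = 3 and 4) in Cre livers and 2.96 (SE 0.22, 7.80-fold, adjusted p = 2.48e-05, n = 3 and 1) in MycF/F livers.

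Slc22a5, the gene of the plasma membrane carnitine transporter OCTN2, had the largest differences of the group. Its brightest probe was marked as an outlier on all arrays but 1. Brightness was averaged over unmarked arrays, so that probe was ranked on 1 Cre array on Wy-14643 alone. The second probe, unmarked on 8 arrays, carries the test. That probe read 0.16, 0.25, 0.31 and 0.28 in Cre livers on Wy-14643 (0.16 marked), against -2.90, -2.88, -2.60 and -3.01 on control diet (-2.90 and -2.88 marked). The MycF/F livers read 0.48, 0.22 and 0.24 on Wy-14643 (0.48 marked), against -3.14 in the control. The diets did not overlap, with or without the marked values. In the fit over single probes, where 9.52% of all probes were called higher in Cre livers and 3.47% in MycF/F livers, the difference was 3.09 (SE 0.13, 8.49-fold, adjusted p = 1.91e-06, n = 3 and 2) in Cre livers and 3.38 (SE 0.18, 10.4-fold, adjusted p = 2.90e-05, n = 2 and 1) in MycF/F livers. The brightest probe, with its marked spots kept, gave 2.68 (SE 0.22) in Cre livers and 3.47 (SE 0.35) in MycF/F livers. Slc22a21, a close paralog of Slc22a5 on the same chromosome, differed by 2.99 in Cre livers and 2.94 in MycF/F livers, and whether the probes of either gene also bind the other transcript was not tested.

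Slc27a4 encodes FATP4, a membrane protein with acyl-CoA synthetase activity that takes up long-chain fatty acids. The brightest probe read -0.12, -0.24, 0.14 and 0.01 in Cre livers on Wy-14643, against -1.47, -1.51, -1.87 and -1.63 on control diet. Readings in MycF/F livers were 0.40, 0.39 and 0.26 on Wy-14643, against -1.53 in the control. All 12 values were unmarked and the diets were well apart, by 1.56 (SE 0.11, 2.96-fold, adjusted p = 1.34e-06) in Cre livers and by 1.88 (SE 0.17, 3.68-fold, adjusted p = 6.38e-05) in MycF/F livers. The second Slc27a4 probe showed a smaller rise in the same RNA. It read 0.13, -0.39, 0.12 and -0.09 in Cre livers on Wy-14643, against -0.50, -0.27, -0.80 and -1.03 on control diet, so that the ranges overlapped. Its difference was 0.59 (SE 0.16, adjusted p = 0.0268) there and 0.96 (SE 0.27, adjusted p = 0.0555) in MycF/F livers, where it missed the threshold; with slide as a block the adjusted p there was 0.0413.

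Slc27a1 encodes FATP1, a long-chain fatty acid transport protein best known from muscle and adipose tissue. Its only probe kept unmarked values on few arrays: 0.56 on 1 Cre array on Wy-14643, 0.27 and 0.51 on 2 MycF/F arrays on Wy-14643, and -1.21 on 1 Cre control array. The marked values were 0.36, 0.58 and 0.43 in Cre livers on Wy-14643, 0.43 in a MycF/F liver on Wy-14643, -0.95, -0.63 and -0.55 in Cre controls and -0.56 in the MycF/F control. The lone unmarked control was thus the lowest of the controls. The difference in Cre livers was 1.78 (SE 0.21) and set 1 array against 1. Its spread came from the 2 unmarked MycF/F arrays on Wy-14643 and, through limma, from all genes and unnamed probes. With the marked spots kept the difference in Cre livers became 1.32 (SE 0.13, adjusted p = 2.90e-05, n = 4 and 4). In MycF/F livers only the fit with marked spots gave a value, 0.97 (SE 0.22, adjusted p = 0.0212).

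Fabp1, the liver fatty acid binding protein whose window holds the direct repeat printed above, was the only gene of the group that exceeded the reference on every array. It read 2.46, 2.23, 1.89 and 2.22 in Cre livers on Wy-14643 (2.46 marked), against 0.88, 0.04, 0.71 and 0.06 on control diet. MycF/F livers gave 2.31, 2.03 and 2.45 on Wy-14643 (2.31 marked), against 0.42 in the control. The controls were spread more widely than the Wy-14643 arrays, with a pair of Cre controls close to the reference and a pair well above it, but no control reached a Wy-14643 array. The difference was 1.69 (SE 0.22, 3.23-fold, adjusted p = 0.000417, n = 3 and 4) in Cre livers and 1.82 (SE 0.35, 3.53-fold, adjusted p = 0.0107, n = 2 and 1) in MycF/F livers. Without the third MycF/F array on Wy-14643 the MycF/F difference was 1.61 and its adjusted p was 0.0592. With the Cy5 signal alone, in place of its ratio to the reference, the rise of Fabp1 was much smaller, 0.63 (adjusted p = 0.0320) in Cre livers and 0.49 (adjusted p = 0.616) in MycF/F livers.

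Of the activating enzymes, Acsl1, the main long-chain acyl-CoA synthetase of liver, rose most and in 3 of 3 probes. The brightest probe read 0.72, 0.53, 0.40 and 0.45 in Cre livers on Wy-14643, against -1.11, -1.55, -0.97 and -1.67 on control diet (-1.11 and -1.55 marked). The MycF/F livers read 0.55, 0.42 and 0.34 on Wy-14643, against -1.57 in the control. Arrays on Wy-14643 were tightly grouped and the controls less so, with no overlap. The difference was 1.84 (SE 0.17, 3.59-fold, adjusted p = 5.82e-05, n = 4 and 2) in Cre livers and 2.00 (SE 0.23, 4.01-fold, adjusted p = 0.000653, n = 3 and 1) in MycF/F livers. The other probes gave 2.41 (SE 0.12) and 2.11 (SE 0.18) in Cre livers, and 2.26 (SE 0.19) and 2.22 (SE 0.24) in MycF/F livers.

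Acsl5, a long-chain acyl-CoA synthetase of the endoplasmic reticulum and mitochondria that is abundant in intestine and liver, read 0.25, 0.28, 0.09 and 0.16 in Cre livers on Wy-14643 (0.25 and 0.28 marked), against -0.71, -1.13, -1.43 and -1.33 on control diet (-0.71 and -1.13 marked). Readings in MycF/F livers were 0.07, 0.15 and 0.18 on Wy-14643 (0.07 marked), against -1.20 in the control. The Wy-14643 arrays of both genotypes shared 1 narrow range. The difference was 1.51 (SE 0.11, 2.85-fold, adjusted p = 0.000129, n = 2 and 2) in Cre livers and 1.36 (SE 0.14, 2.57-fold, adjusted p = 0.00149, n = 2 and 1) in MycF/F livers.

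Slc27a2 encodes FATP2, which activates very long-chain fatty acids and also takes part in uptake into hepatocytes. It read 0.51, 0.49, 0.32 and 0.29 in Cre livers on Wy-14643 (0.51 marked), against -1.02, -0.68, -0.85 and -1.15 on control diet (-1.02 and -0.68 marked). MycF/F livers gave 0.10, 0.04 and 0.28 on Wy-14643, against -1.15 in the control. All arrays on Wy-14643 were above the reference and all controls below it. The difference was 1.36 (SE 0.13, 2.57-fold, adjusted p = 0.000108, n = 3 and 2) in Cre livers and 1.29 (SE 0.16, 2.44-fold, adjusted p = 0.00160, n = 3 and 1) in MycF/F livers.

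Acsl3 and Acsl4 had the smallest rises in Cre livers by the brightest probe. Acsl3, a synthetase of the endoplasmic reticulum and of lipid droplets, read 0.32, 0.40, 0.20 and 0.49 in Cre livers on Wy-14643, against -0.16, -0.26, -0.36 and -0.74 on control diet. The MycF/F livers read 0.50, 0.33 and 0.49 on Wy-14643, against -0.42 in the control. No value of Acsl3 was marked, and the diets were separated by a narrow gap. The difference was 0.73 (SE 0.12, 1.66-fold, adjusted p = 0.00105) in Cre livers and 0.86 (SE 0.19, 1.81-fold, adjusted p = 0.0183) in MycF/F livers, where the call was lost without the third array on Wy-14643 (adjusted p = 0.0532), with the authors' deposited log ratios (0.0788), with median centring (0.875) and with the Cy5 signal alone (0.772).

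Acsl4, which prefers arachidonic acid, read -0.07, 0.36, 0.04 and 0.24 in Cre livers on Wy-14643, against -0.69, -0.47, -0.81 and -0.84 on control diet (-0.81 marked). Readings in MycF/F livers were 0.39, 0.41 and 0.42 on Wy-14643 (0.39 marked), against a marked -0.59 in the control. The difference in Cre livers was 0.81 (SE 0.12, 1.75-fold, adjusted p = 0.00135, n = 4 and 3). The second Acsl4 probe gave 0.93 (SE 0.10, adjusted p = 0.000442, n = 3 and 2) there and 0.91 (SE 0.14, adjusted p = 0.00593, n = 2 and 1) in MycF/F livers, and with its marked spots kept the value in Cre livers became 0.64 (SE 0.15), with overlapping ranges. With its marked spots kept, the brightest probe gave 1.00 (SE 0.18, adjusted p = 0.00504) in MycF/F livers.

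The sizes of these rises were not all alike. In Cre livers the 95% interval of Cd36 ran from 2.06 to 2.70, above those of Acsl3 (0.47 to 0.99) and Acsl4 (0.53 to 1.08). It also lay above those of Slc27a4 (1.33 to 1.79), Acsl5 (1.24 to 1.77) and Slc27a2 (1.07 to 1.65). The intervals of Fabp1 (1.21 to 2.17) and Acsl1 (1.46 to 2.23) reached that of Cd36. Those of Slc27a4, Fabp1, Acsl1, Acsl5 and Slc27a2 overlapped with each other. The 2 probes of Slc27a4 differed by more than neighbouring genes did, so an order between genes of similar size cannot be read from single probes.

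**Figure D2:**
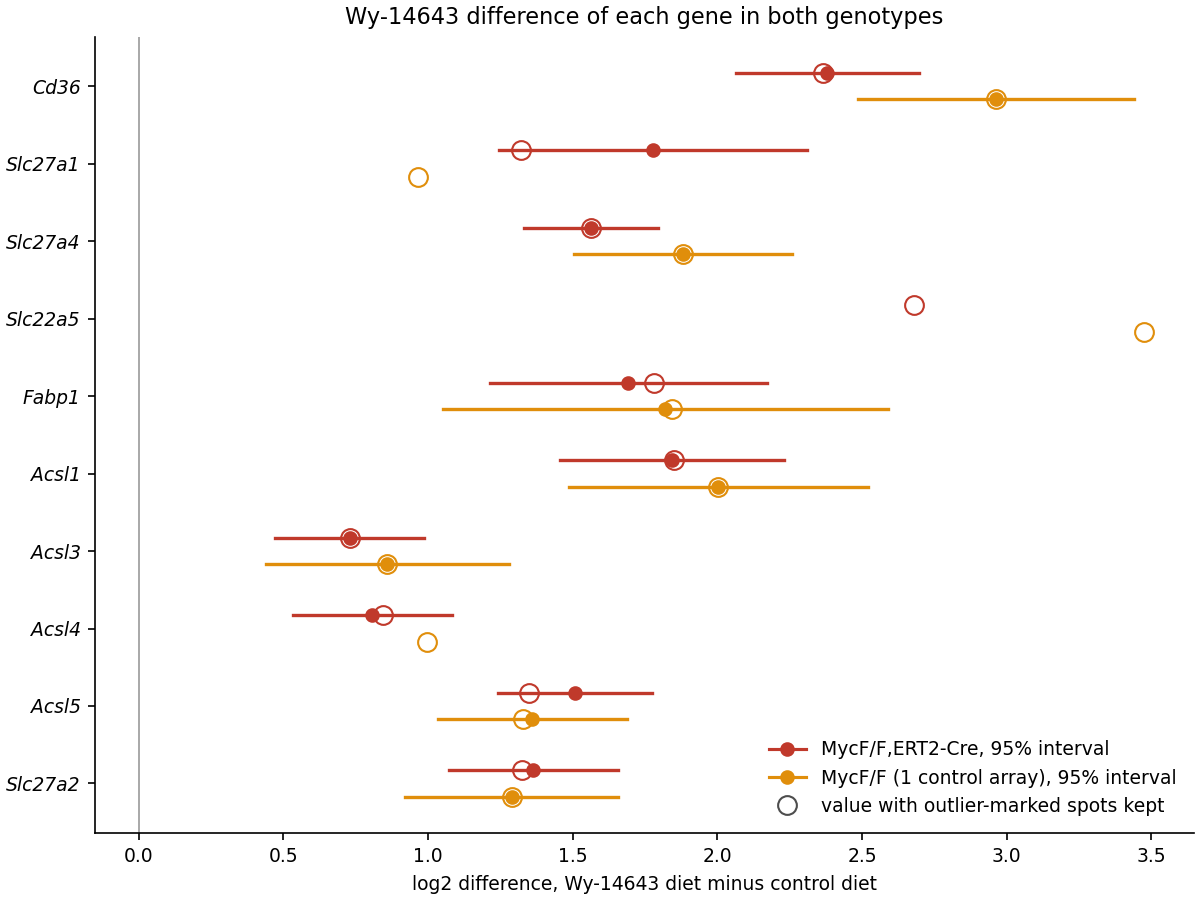
Log2 difference between the Wy-14643 and control diets (x axis) of each gene (y axis), with 95% intervals, in MycF/F,ERT2-Cre livers (upper, red) and in MycF/F livers (lower, orange, 1 control array); rings give the value with outlier-marked spots kept, the only value where a filled point is missing. Every value lies above 0, from 0.73 for Acsl3 in MycF/F,ERT2-Cre livers to 3.47 for Slc22a5 in MycF/F livers.

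**Figure D3:**
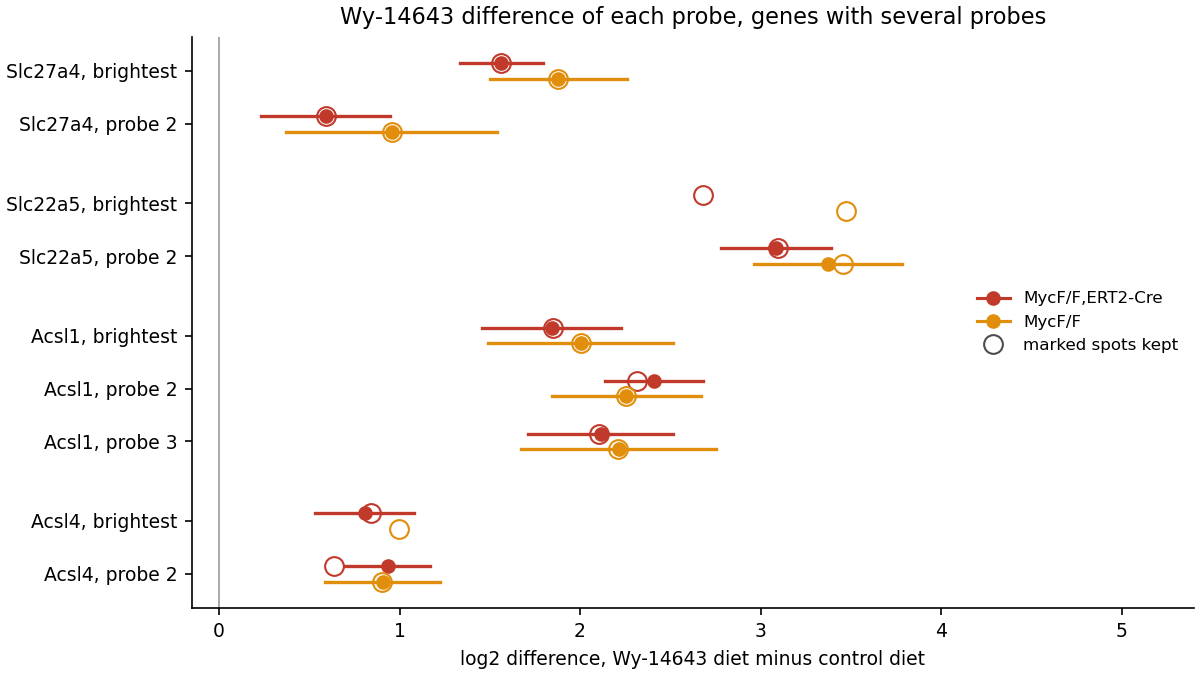
Log2 difference between the Wy-14643 and control diets (x axis) for each probe of the 4 genes with several probes (y axis), with 95% intervals, in MycF/F,ERT2-Cre livers (upper, red) and MycF/F livers (lower, orange); rings give values with outlier-marked spots kept. The probes of Slc27a4 give 1.56 and 0.59 in MycF/F,ERT2-Cre livers, whereas those of Acsl1 lie between 1.84 and 2.41.

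The design also sets Cre against MycF/F livers on the same diet. Myc, the gene that the Cre is meant to delete, was read by 3 probes. The brightest read a marked 0.97 and unmarked -0.02, 0.05 and -0.07 in Cre livers on Wy-14643, against a marked 1.12 and unmarked 0.61 and 0.50 in MycF/F livers on Wy-14643, so that the groups overlapped once the marked spots of slide 1 were kept. On control diet it read 0.67, 0.38, 0.41 and -0.0029 in Cre livers, against 0.57 in the MycF/F liver, and it passed on neither diet, with -0.57 (adjusted p = 0.260) on Wy-14643 and -0.21 (adjusted p = 1.00) on control diet. Both other probes were below 0 on all 8 arrays of Cre livers and above 0 on all 4 arrays of MycF/F livers. On Wy-14643 they read -1.37 to -0.99 and -1.21 to -0.96 in Cre livers, against 0.28 to 0.84 and 0.52 to 0.88 in MycF/F livers. On control diet they read -1.09 to -0.36 and -1.06 to -0.22 in Cre livers, against 0.19 and 0.22 in the MycF/F liver. Whether the 3 probes lie within the deleted part of Myc was not analysed here.

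None of the 9 genes that could be tested passed the threshold between Cre and MycF/F livers on Wy-14643, where limma called 0.0199% of all 25171 genes and unnamed probes higher and 0.0834% lower, and 0 in either direction with the replicate number as a block. The median of the 9 differences was -0.09, and 2088 of all genes tested had an unadjusted p under 0.05. Cd36 and Slc27a4 had the largest differences of the group.

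All 4 Cre livers on Wy-14643 had less Cd36 than all 3 MycF/F livers on the same diet, by the values given above. The difference was -0.62 (SE 0.15, 95% interval -0.96 to -0.28, adjusted p = 0.190, n = 3 and 3), which is 0.650-fold. It was -1.01 within slide 1 and -0.39 within slide 3, and slide 2 held no unmarked pair. Slc27a4 was likewise lower in all 4 Cre livers, by -0.40 (SE 0.11, interval -0.65 to -0.15, adjusted p = 0.232), and by -0.52, -0.63 and -0.19 within the 3 slides. The second Slc27a4 probe gave -0.32 (SE 0.18), with overlapping ranges. Neither gene passed under any of the alternative settings tried, with adjusted p from 0.105 for Cd36 and from 0.156 for Slc27a4.

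Of the other genes, Acsl4 had a difference of -0.28 (SE 0.14, interval -0.59 to 0.04) and Slc27a2 of 0.23 (SE 0.12, interval -0.03 to 0.49), each with groups that did not overlap. The second Acsl4 probe gave -0.077 (SE 0.10), with overlapping ranges. With marked spots kept, Cd36, Slc27a4 and Acsl4 lay wholly lower in Cre livers and Slc27a2 wholly higher, a separation shown by 5.24% of all genes and unnamed probes as lower and by 5.80% as higher. Slc27a1, with unmarked values on 1 and 2 arrays, differed by 0.17, and by 0.08 with overlapping ranges when marked spots were kept. The groups overlapped for Fabp1, Acsl1, Acsl3 and Acsl5, whose differences were -0.13 (interval -0.70 to 0.45), 0.09 (-0.26 to 0.43), -0.09 (-0.37 to 0.19) and -0.04 (-0.30 to 0.23). The second Slc22a5 probe differed by 0.047 (interval -0.26 to 0.35). The interval of Fabp1 reaches a decrease of 0.70, and a p above the threshold does not show that the genotypes were alike.

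**Figure D4:**
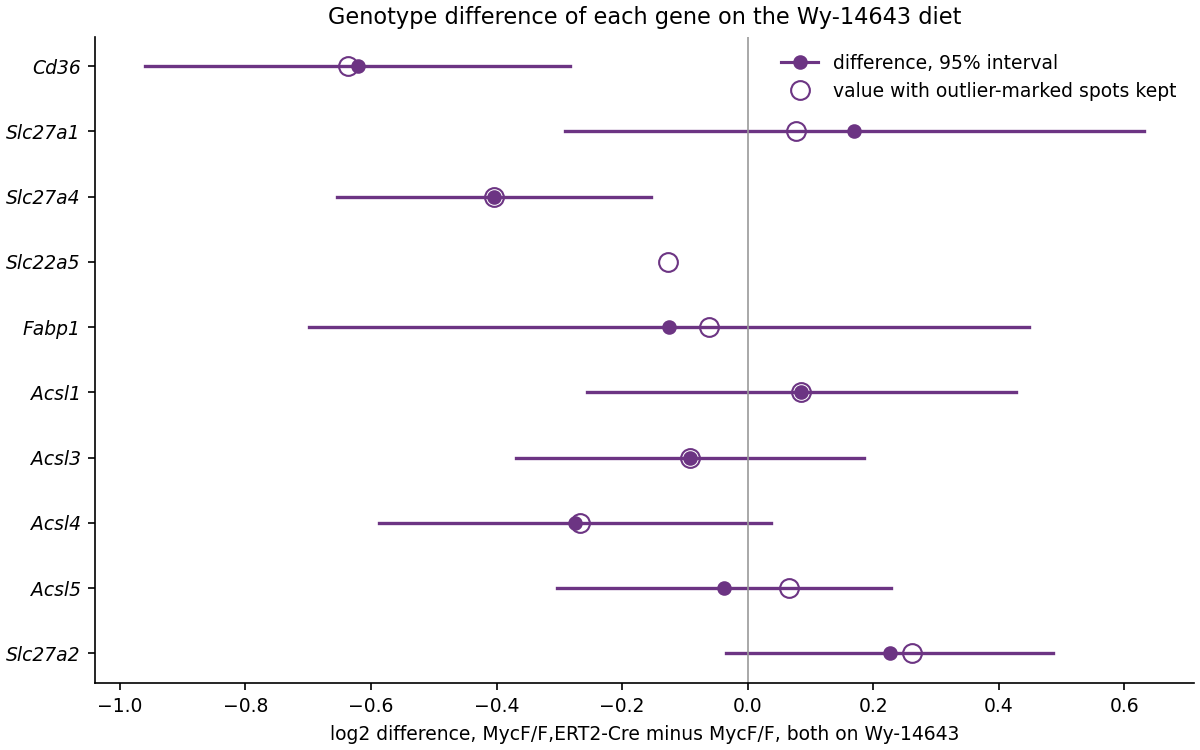
Log2 difference, on Wy-14643, of livers with ERT2-Cre minus livers without it (x axis) for each gene (y axis), with 95% intervals; rings give the value with outlier-marked spots kept. Cd36 at -0.62 and Slc27a4 at -0.40 have unadjusted intervals below 0, and no gene passed the adjusted threshold.

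On control diet 7 genes could be compared between the Cre livers and the single MycF/F liver, and none passed, where 0% of all 24898 genes and unnamed probes were called higher and 0% lower and 447 had an unadjusted p under 0.05. The differences of these 7 ran from -0.19 for Acsl5 to 0.25 for Acsl1, and Cd36 differed by -0.04 (interval -0.50 to 0.42). The second Slc22a5 probe, not among the 7, differed by 0.34. With marked spots kept, the 10 genes ran from -0.28 for Slc27a1 to 0.66 for Slc22a5. The test of whether the Wy-14643 difference itself depended on genotype called 0 of 7 genes, and 0% of all 24874 genes and unnamed probes in either direction, with 537 at an unadjusted p under 0.05. For Cd36 that difference of differences was -0.58 (SE 0.26, interval -1.16 to -0.01, adjusted p = 1.00). Both genotype comparisons share arrays with the diet comparisons above.

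Beyond the 10 genes, 34 other genes of the same steps were listed, of which 30 were measured above the filter on dim probes. In Cre livers 12 rose and 4 fell of the 29 tested, with a median of 0.039. The shares of all genes and unnamed probes called there were 9.07% higher and 7.20% lower. In MycF/F livers 10 rose and 2 fell of 30, against 3.20% called higher and 3.22% lower. Among 9 other genes of uptake, Slc22a21 (2.99, SE 0.13), the very low density lipoprotein receptor Vldlr (2.63, SE 0.19) and lipoprotein lipase Lpl (2.07, SE 0.13) were among the 4 that rose in Cre livers, and 2 fell. Slc27a5, the bile acyl-CoA synthetase FATP5, fell by 0.91 (SE 0.13, adjusted p = 0.00175). Slc27a5 thus went against the 3 Slc27a genes described above, and it also fell in MycF/F livers, by 0.92 (SE 0.17, adjusted p = 0.0161, or 0.0947 with slide as a block). With slide as a block, 3 of the 16 calls in Cre livers and 2 of the 12 in MycF/F livers were lost.

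Among other binding proteins, Dbi, the acyl-CoA binding protein, rose by 1.49 (SE 0.14), Fabp3 by 1.45 (SE 0.42), Fabp2 by 1.26 (SE 0.26) and Acbd4 by 0.97 (SE 0.09) in Cre livers, and 1 of the 8 tested fell. Fabp4, the adipocyte and macrophage fatty acid binding protein, read a marked 0.71 and unmarked 0.07, 0.29 and 0.45 in Cre livers on Wy-14643, against 4 marked values from -2.80 to -2.45 on control diet, so the test used MycF/F livers only. There Fabp4 rose by 3.96 (SE 0.24, adjusted p = 0.000138, n = 2 and 1). Fabp3, the heart form, spread widely among Cre livers on Wy-14643, at -1.63, 0.13, -0.30 and 0.70. Its Cre controls read -2.46, -1.69, -1.39 and -1.36, so the ranges overlapped. Of 12 other synthetases 4 rose in Cre livers, among them Acsf2 (1.08, SE 0.14), Acsf3 (1.06, SE 0.08) and Acss3 (0.82, SE 0.12), and Acsm1, a medium-chain synthetase, fell by 0.82 (SE 0.10). None of the 30 genes passed between the genotypes on Wy-14643, where 0.0199% of all genes and unnamed probes were called higher and 0.0834% lower.

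**Figure D5:**
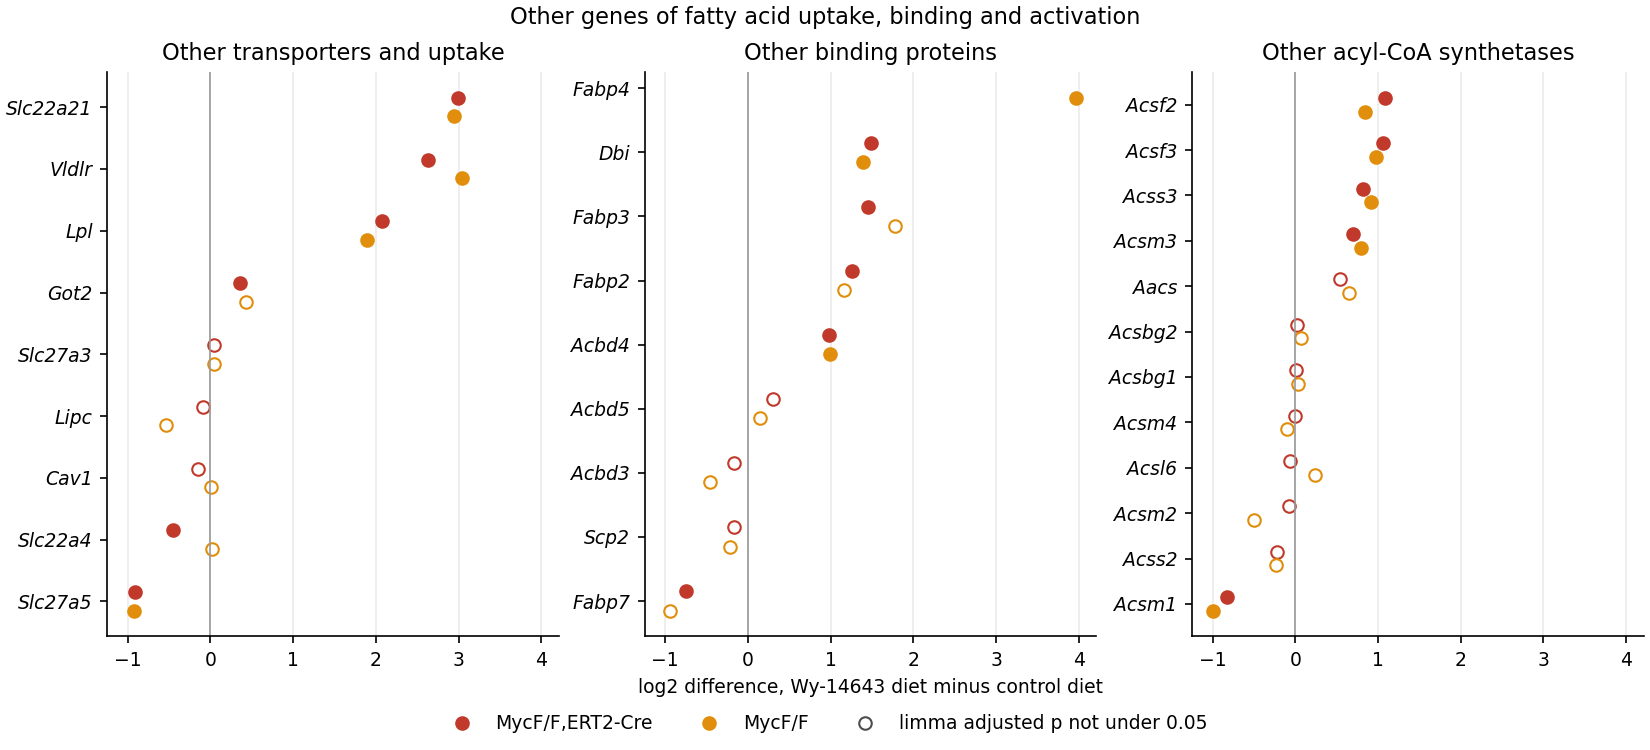
Log2 difference between the Wy-14643 and control diets (x axis) of 30 other genes of uptake, binding and activation, in MycF/F,ERT2-Cre (upper, red) and MycF/F livers (lower, orange); open points did not pass the limma threshold, and Fabp4 had no test in MycF/F,ERT2-Cre livers. The genes lie on both sides of 0, with Acsm1 at the lower end and Fabp4, at 3.96, at the upper end, both in MycF/F livers.

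The genes whose profile over the arrays was most like that of a member were named by the root mean square difference of log2 ratios, each gene centred on its own mean, over the arrays where the member had a value. For Cd36 these were Mogat1 (0.18), Acot2 (0.26) and Pmm1 (0.28), over 11 arrays and 11631 genes. For Fabp1 they were Dbi (0.22), Clstn3 (0.23) and Tpm2 (0.24) over 10 arrays, and for Slc27a4 they were Clstn3 (0.17), Dctn5 (0.19) and Acot8 (0.21) over 12. Acsl1 was nearest to Eci3 (0.14), Lpcat3 (0.15) and Abcc4 (0.16), and Acsl3 to Mtres1 (0.094), Fancl (0.096) and 1700029I15Rik (0.12). Acsl4 was near to Dhrs7b (0.097) and Pdcd5 (0.12), and Slc27a2 was nearest to Mgst3 (0.12), Cops6 (0.12) and Gemin2 (0.12). Slc27a1, Slc22a5 and Acsl5 had unmarked values on too few arrays for this comparison, under 8. All these profiles share the step between diets, the arrays and the pooled reference.

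Several of these genes are also expressed in other cells of liver, CD36 and FABP4 in macrophages, endothelium and adipocytes among them. No marker of those cells passed as higher on Wy-14643 in either genotype. Of all genes and unnamed probes tested in Cre livers, 9.07% were called higher and 7.20% lower. In MycF/F livers 3.20% were called higher and 3.22% lower, so few calls could be expected among the markers there. In Cre livers 0 of 10 Kupffer cell and macrophage markers rose and 6 fell (median -0.62), 0 of 10 endothelial markers rose and 2 fell (median -0.29), and 0 of 6 adipocyte markers passed in either direction (median 0.015). Of the stellate cell and fibroblast markers 0 of 10 rose and 4 fell (median -0.31), and of the lymphocyte markers 0 of 7 rose and 2 fell (median -0.22). The mean log2 ratio of the adipocyte markers was -0.017 to 0.13 in Cre livers on Wy-14643 and -0.032 to 0.12 on control diet. In MycF/F livers that mean was 0.12 to 0.36 on Wy-14643, against 0.038 in the control. The differences of the 6 markers there went in both directions, from -0.22 to 0.83 with a median of 0.22. The part of that mean in the MycF/F results, the rise of Fabp4 among them, was not tested. Lep was not measured above the filter. Of 9 hepatocyte markers 6 fell (median -1.28), among them Apoc3 (-2.27), Ahsg (-1.87) and Alb (-1.31), and their mean ran from -0.39 to -0.15 on Wy-14643, against 0.86 to 0.90 on control diet. Between the genotypes on Wy-14643 no marker passed, where 0.0199% of all genes and unnamed probes were called higher and 0.0834% lower. The Kupffer markers had a median of 0.39 there. The 6 adipocyte markers, all lower in Cre livers, had a median of -0.12 (-0.74 to -0.054), where Cd36 had -0.62. The part of these markers in the result was not tested.

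The 12 arrays lay on 3 slides of 4, and all groups but the MycF/F control had an array on each slide. From 64.6% to 77.1% of spots were well above background, and slide 1 had the most spots marked as outliers, 5.47% to 8.35%, against 0.904% to 1.84% on slides 2 and 3. Another scaling changed some calls: median centring in place of loess ended those of Slc27a1, Acsl3 and Acsl4 in Cre livers, and the Cy5 signal alone ended those of Slc27a1, Acsl1, Acsl3 and Acsl4, where Acsl1 was still 1.82 and Acsl3 was 0.25. In MycF/F livers median centring ended the calls of Slc27a4, Acsl3 and Acsl5, and Cy5 alone those of Fabp1, Acsl1, Acsl3, Acsl5 and Slc27a2. The authors' deposited log ratios ended those of Slc27a1 in Cre livers (1.72, adjusted p = 0.0620) and of Acsl3 in MycF/F livers. All these differences were above 0.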

How the data were processed

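Whole-liver RNA on 12 two-colour Agilent arrays was compared between 4 groups. The deposited spot intensity values (median Cy5 and Cy3 signal and local background) and the deposited log10 ratio, used only as an alternative, were made by the authors, per the file headers, with version 11.0.1.1 of Agilent Feature Extraction. From these, normexp background correction (offset 50) and loess within each array were run in limma 3.58.1 (R 4.3.3), outlier-marked spots were left out, spots of a probe were averaged, and probes well above background on at least 3 arrays were kept. Symbols came from a RefSeq table of GRCm38.p6, which held 16792 of the 17440 mRNA accessions, and each gene was read by its brightest kept probe. Linear models over all 25270 genes or unnamed probes, with 1 mean per group and Benjamini-Hochberg adjustment, gave the tests, which were also run on simulated data. The empirical Bayes step of limma drew the spread of each gene toward that of all genes. A gene with a value on all 12 arrays had 8 residual degrees of freedom. Values were missing for 4249 genes or unnamed probes, which could leave fewer. The number of arrays limits the precision.

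The members and the gene lists were chosen with earlier results of these data known. All 10 members were named, with the up to 4 called genes of largest difference in each other list, up to 3 marker genes and up to 3 genes nearest in profile. Slide 1, 2 and 3 each had their own scan. Deviations of same-numbered arrays correlated over 0.1 in 3 of 3 pairs between the genotypes on Wy-14643 and in 2 of 4 pairs between the diets in Cre livers. The 3 pairs between the genotypes all shared a slide, so pairing by number cannot be told apart there from a shared slide. The median correlation was 0.26 for arrays of 1 slide and -0.15 for others. The replicate number was used as a block only as an alternative. Alternatives changed the normalization, filter, outlier spots, probe choice, block and arrays included. Protein sequences were not used here.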

Additional observations from a re-analysis of the deposited data

How the results depend on the processing

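All differences between the diets kept their sign under every setting that gave a value. Members called higher in Cre livers (9) fell to 5 with the Cy5 signal alone, and in MycF/F livers (7) to 4 with median centring and 2 with Cy5 alone; leaving out 1 array at a time gave 8 to 9 and 5 to 7. With median centring, genes called over the whole table were 601 higher and 284 lower in Cre livers and 114 and 100 in MycF/F livers, and with Cy5 alone 620 and 665, and 151 and 104. The authors' deposited log ratios gave 503 lower in MycF/F livers, and leaving out slide 1 gave 1423 higher and 1397 lower there; leaving out 1 array gave 530 to 658 higher. Between the genotypes on Wy-14643 (5 higher and 21 lower) the counts were 0 and 0 with deposited ratios, median centring, Cy5 alone and the replicate block, 32 and 75 without slide 1, 10 and 38 with a trended robust fit, 10 higher with outlier spots kept, with or without a slide block, and 0 to 2 higher and 0 to 6 lower with 1 array left out. On control diet Cy5 alone called 1 higher and 3 lower, and the fit without slide 1 called 2 lower. No member was called between the genotypes, or by the interaction, under any setting run; the cause of the shifts was not tested.

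Signs changed only among uncalled genotype differences. On Wy-14643, Acsl1 was -0.13 with Cy5 alone, Acsl5 was 0.066 with outlier spots kept and 0.084 with a slide block as well, and Fabp1 ranged from -0.33 to 0.082 with 1 array left out. On control diet the deposited ratios gave -0.12 for Fabp1 and -0.070 for Acsl3; median centring gave -0.11 for Fabp1, -0.066 for Acsl1, -0.026 for Acsl3 and -0.16 for Slc27a2; Cy5 alone gave 0.39 for Cd36, 0.13 for Slc27a4 and -0.15 for Fabp1. There Acsl5 was 0.046 with outlier spots kept, Acsl1 was -0.045 as the mean of its probes, Cd36 was 0.051 with a slide block and 0.020 with outlier spots kept as well, and without slide 1 Fabp1 was -0.035 and Acsl3 -0.13. With 1 control array left out, Cd36 ranged from -0.085 to 0.015, Fabp1 from -0.15 to 0.13, Acsl1 from -0.11 to 0.60, Acsl3 from -0.034 to 0.16 and Slc27a2 from -0.0012 to 0.30. The interaction was 0.17 for Acsl1 with median centring and 0.13 with the mean of its probes, 0.14 for Fabp1 with Cy5 alone and 0.078 for Acsl3 without slide 1; with 1 array left out it ranged from -0.34 to 0.080 for Fabp1, -0.51 to 0.19 for Acsl1 and -0.077 to 0.23 for Slc27a2.

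The replicate block left 9 and 7 members called higher on Wy-14643. Its numbers were not shown to pair arrays: an array correlated best with its own number in 8 of 20 cases. The brightest probe with a value in every group (9 and 9 members called) and outlier spots kept with a slide block (10 and 10) were settings chosen after seeing the data. The single MycF/F control array, the outlier spots of slide 1 and single probes for 6 genes limit these results.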

Other observations

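Some genes outside the 10 had large differences between the genotypes on Wy-14643 without passing the threshold. Fabp3, the heart fatty acid binding protein, read -1.63, 0.13, -0.30 and 0.70 in Cre livers and 1.54, 0.59 and 0.79 in MycF/F livers, a difference of -1.25 (SE 0.46, limma adjusted p = 0.410), and the groups overlapped. Fabp4 read 0.71 (marked as an outlier), 0.07, 0.29 and 0.45 in Cre livers and 1.82 (marked), 0.61 and 1.09 in MycF/F livers, a difference of -0.58 (SE 0.18, limma adjusted p = 0.354). Cidea, a lipid droplet protein counted here among the adipocyte markers, differed by -0.74 (SE 0.15, limma adjusted p = 0.103). Each of the 3 was lower on average in Cre livers, as were Cd36 and Slc27a4. The 30 other genes of the pathway, Fabp3 and Fabp4 among them, went in both directions. Their differences had a median of -0.027 and ran from -1.25 to 0.43.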
